A study of Mus musculus with 21 samples.

Results

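Myc, Mycn, Mycl, Max, Mga and Mxi1, the mouse Myc family with partners and antagonists of its network, were measured as transcripts in mouse embryonic stem (ES) cells with and without a knockout of Dot1l, the H3K79 methyltransferase. The members were chosen by gene symbol, and all 6 were found once each among the 53796 genes of each expression table. The series holds 21 samples, of which 15 RNA-seq libraries carry these genes, with 3 libraries in each of 5 groups.

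The Dot1l KO libraries and their controls came from V6.5 ES cells, the controls being labelled WT and named for a control guide RNA. One KO group and its control were kept in serum medium with LIF (100 U/ml) on inactivated mouse embryonic fibroblasts. The other KO group and its control were plated without feeders on gelatin in serum-free N2B27 medium with the kinase inhibitor Y-27632 and then given Wnt3a (50 ng/ml) and activin A (10 ng/ml), usually for 24 h before harvest, a condition called Wnt/activin here. The last group, called ES cells here, was untreated V6.5 cells of genotype Cdk1as/as in LIF medium, with no control of its own. Whether the KO cells are 1 clone or a pool, and whether replicate libraries stem from different cultures, is not in the labels, so each p-value reflects variation among libraries that may be only technical. Values are FPKM, fragments scaled to transcript length and library size, and their read depth is unknown. Each pair of KO and control groups, and the ES cells, stand in a table of their own that was scaled separately, so levels set across tables are descriptions.

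Myc, Mycn and Mycl are basic helix-loop-helix leucine zipper proteins that bind the E-box only as heterodimers with Max, and they activate genes of ribosome production, metabolism and cell division. Mxi1 competes for the same partner and recruits the Sin3 histone deacetylase complex to E-boxes. Mga carries a T-box domain beside its helix-loop-helix domain, pairs with Max as well, and is the scaffold of the Polycomb complex PRC1.6, which keeps germline genes silent in ES cells. In mouse ES cells, Myc is known as a target of LIF signalling, and Myc and Mycn can replace each other in self-renewal.

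The deposited tables placed Myc (ENSMUSG00000022346) at chr15:61985390-61990374, Mycn (ENSMUSG00000037169) at chr12:12936092-12941914 and Mycl (ENSMUSG00000028654) at chr4:122995651-123002485. Max (ENSMUSG00000059436) lay at chr12:76937268-76962201, Mga (ENSMUSG00000033943) at chr2:119897227-119969581 and Mxi1 (ENSMUSG00000025025) at chr19:53310505-53375810. These loci are given as listed, with starts that may count from 0, and each overlapped the RefSeq position of its gene on GRCm38.p6. RefSeq windows of 300 bases, from 250 before to 50 after a transcript start, were at hand for 5 of the 6 members in 7 windows, of which 3 belonged to Mxi1. No window was used for Myc. Those of the 2 members with the largest differences in Wnt/activin, Mga and Mycl, and of Mycn and Max, which hold a match to a motif searched, are shown 5′ to 3′, with the matches in capitals.
Mga (chr2:119896978-119897277, GRCm38.p6, plus strand): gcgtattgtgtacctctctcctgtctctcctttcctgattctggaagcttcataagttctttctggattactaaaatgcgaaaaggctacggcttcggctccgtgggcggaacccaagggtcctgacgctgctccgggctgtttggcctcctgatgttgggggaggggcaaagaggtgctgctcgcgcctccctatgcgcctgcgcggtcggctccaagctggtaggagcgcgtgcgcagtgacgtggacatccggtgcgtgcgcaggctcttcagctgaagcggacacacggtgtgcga
Mycl (chr4:122995681-122995980, GRCm38.p6, plus strand): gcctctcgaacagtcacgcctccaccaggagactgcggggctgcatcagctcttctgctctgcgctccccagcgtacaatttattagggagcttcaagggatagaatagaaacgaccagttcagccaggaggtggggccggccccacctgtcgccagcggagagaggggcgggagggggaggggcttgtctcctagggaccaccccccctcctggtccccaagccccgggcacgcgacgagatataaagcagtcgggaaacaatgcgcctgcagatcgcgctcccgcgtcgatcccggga
Mycn (chr12:12941787-12942086, GRCm38.p6, minus strand): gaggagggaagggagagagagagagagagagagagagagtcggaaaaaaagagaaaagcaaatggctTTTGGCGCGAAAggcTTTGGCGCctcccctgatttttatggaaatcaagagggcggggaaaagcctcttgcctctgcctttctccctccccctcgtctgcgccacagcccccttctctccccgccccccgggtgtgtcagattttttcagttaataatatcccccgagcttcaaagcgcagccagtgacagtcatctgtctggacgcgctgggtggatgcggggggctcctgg
Max (chr12:76962199-76962498, GRCm38.p6, minus strand): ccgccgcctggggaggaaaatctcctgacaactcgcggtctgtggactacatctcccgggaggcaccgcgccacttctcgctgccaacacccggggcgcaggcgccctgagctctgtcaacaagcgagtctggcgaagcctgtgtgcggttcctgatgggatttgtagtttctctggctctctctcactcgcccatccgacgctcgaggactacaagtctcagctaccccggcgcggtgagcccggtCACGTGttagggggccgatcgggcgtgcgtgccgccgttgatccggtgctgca
Motifs were searched as exact letters on both strands. The E-box CACGTG of Myc and Max dimers was found in the Max window, with its first base 3 bases before the start, and in 7.15% of all 32851 windows. The E2F letters TTTNGCGC were found at 3 places in the Mycn window, 183, 179 and 168 bases before the start, the first 2 overlapping, and in 1.38% of all windows. The T-box letters GGTGTGA, in 3.98% of all windows, and the Tcf/Lef letters ATCAAAG, in 3.73%, were in none of the 7 windows of the members. The Mga and Mycl windows, and the 3 of Mxi1, held none of the 4 sets of letters. GC content was 60.0% for Mga, 64.0% for Mycl, 56.7% for Mycn and 64.7% for Max, against a median of 52.7% over all windows.

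Before the members, the libraries and labels were checked. Dot1l ranged from 8.90 to 11.2 FPKM in KO and from 20.6 to 24.6 FPKM in control LIF libraries, and from 12.9 to 14.7 FPKM in KO and 17.7 to 19.1 FPKM in control libraries in Wnt/activin, so its transcript was lower without overlap but still present, and gene totals cannot show a loss confined to a targeted exon. The separately scaled ES cells, which are not labelled as Dot1l KO, had 12.9 to 14.5 FPKM, near the KO libraries in Wnt/activin. Summed FPKM per library in Wnt/activin ran from 759255 to 792381 in KO and from 1087970 to 1144370 in control libraries, without overlap. In LIF it ran from 835737 to 1079780 in KO and from 840269 to 895128 in control libraries, which overlapped. The Mir6236 row held 28.6% of the sum in KO LIF replicate 3 and 2.72% to 8.31% in the other 11. ES cell markers (Pou5f1, Sox2, Nanog, Utf1, Dppa4) were above 1 FPKM in every group. Of the primitive streak markers (T, Mixl1, Eomes, Mesp1, Lhx1), 4 of 5 were under 1 FPKM on average in LIF and in ES cells.

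**Figure D1:**
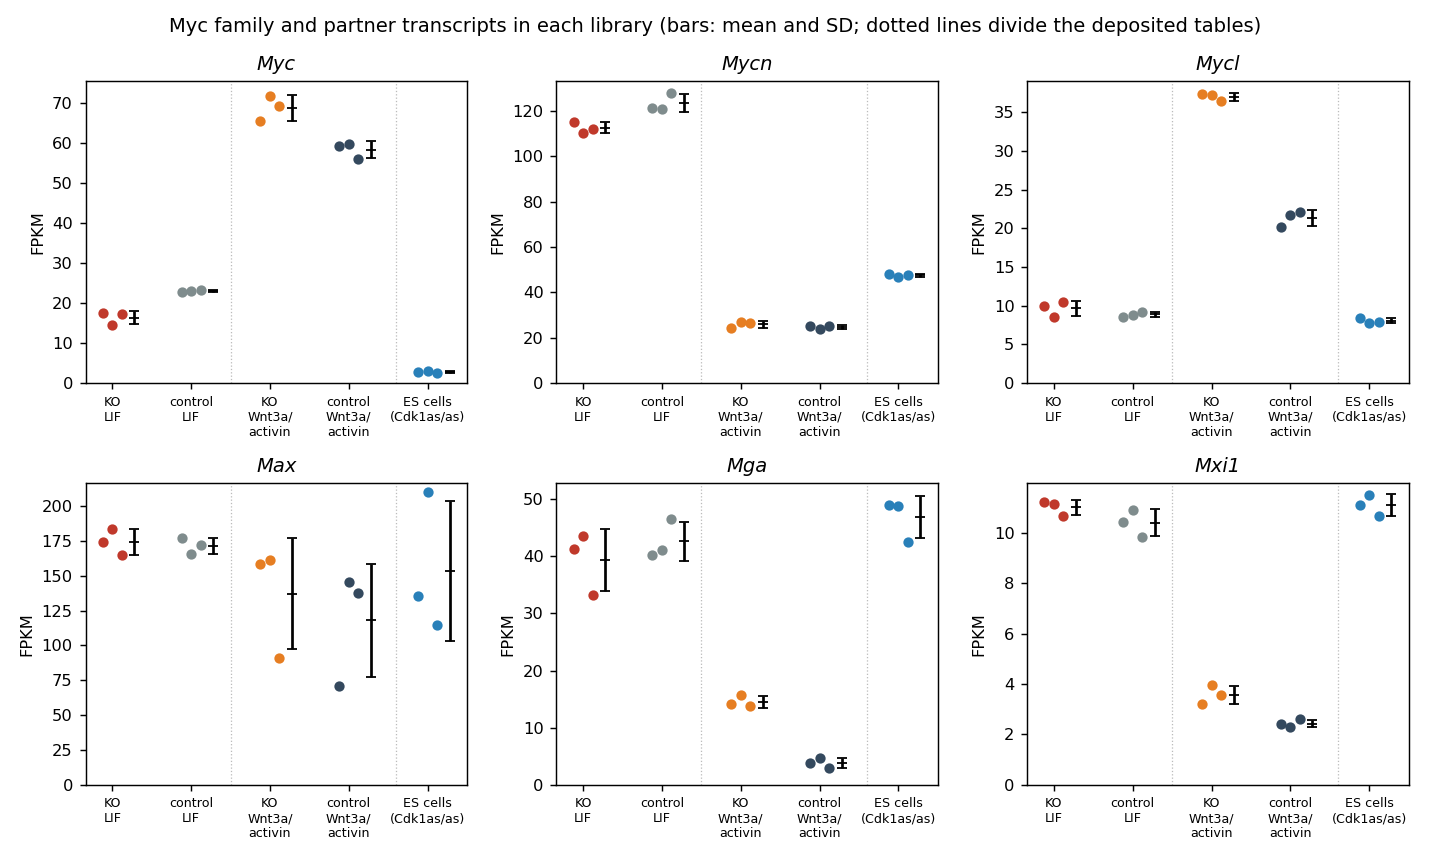
FPKM of each member (y axis, 1 panel per gene, each with its own scale from 0) in every library (points) of the Dot1l KO and control groups in LIF, the KO and control groups in Wnt/activin, and ES cells (x axis). Bars give mean and SD of 3 libraries, and dotted lines divide the separately scaled tables; Mga at 13.7 to 15.7 FPKM in KO stands above 2.90 to 4.61 FPKM in control cells in Wnt/activin, and Max spreads widely in Wnt/activin and in ES cells.

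Myc was called in both conditions, in opposite directions. In LIF it measured 17.4, 14.5 and 17.1 FPKM in KO libraries, against 22.7, 23.0 and 23.1 FPKM in control libraries. In Wnt/activin it measured 65.3, 71.7 and 69.1 FPKM in KO libraries, against 59.3, 59.7 and 55.9 FPKM in control libraries. Every KO library was thus below every control library in LIF and above every one in Wnt/activin. In limma's test on log2(FPKM + 1), with p-values adjusted over all genes (Benjamini-Hochberg, threshold 0.05), Myc fell by 0.47 on the log2 scale in LIF (SE 0.08, adjusted p = 0.0383, n = 3 each), a ratio of means of 0.712. It rose by 0.23 in Wnt/activin (SE 0.06, limma adjusted p = 0.0148), a ratio of 1.18.

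The LIF call of Myc was near the threshold: it ended when any 1 of the 6 libraries was left out (adjusted p from 0.0840 to 0.118) and held in 1 of 13 alternatives in all (0.0367 to 0.144), with the fold change negative throughout. In Wnt/activin the call held in 13 of 13, but the log2 fold change was 0.52 after quantile normalization and 0.71 after removal of a trend with gene span and level. In the authors' deposited table, Myc had a q-value of 0.00196 in LIF and 0.0332 in Wnt/activin. In ES cells Myc was at 2.82, 2.95 and 2.56 FPKM, its lowest level in the series and outside the range of every other group. By mean level the order of groups for Myc was KO in Wnt/activin, its control, control in LIF, KO in LIF and ES cells, with no overlap between neighbours.

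Mycn, the predominant family member in LIF, measured 115, 110 and 112 FPKM in KO LIF libraries and 121, 121 and 128 FPKM in control LIF libraries. The KO libraries were all lower, but the log2 difference of -0.13 (SE 0.05, 95% interval -0.24 to -0.02) missed the threshold (limma adjusted p = 0.149). In Wnt/activin, Mycn was at 24.2, 27.0 and 26.5 FPKM in KO libraries and 25.1, 23.6 and 25.1 FPKM in control libraries, which overlapped. The log2 difference there was 0.07 (95% interval -0.09 to 0.23, limma adjusted p = 0.403). It passed the threshold in 2 of 13 alternatives, reaching 0.19 (adjusted p = 0.0385) by quantile normalization and 0.37 (0.00304) with the trend taken out, while its adjusted p over all 13 ranged from 0.00304 to 0.690. ES cells had 48.2, 46.8 and 47.7 FPKM, between the levels of the LIF groups and those in Wnt/activin.

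Mycl, the family member first found in lung cancer, showed a large KO difference in Wnt/activin. It measured 37.4, 37.2 and 36.4 FPKM in KO libraries, against 20.2, 21.7 and 22.1 FPKM in control libraries. The groups stood well apart, with SDs of 0.527 FPKM in KO and 1.02 FPKM in control libraries. Mycl rose by 0.77 on the log2 scale (SE 0.06, limma adjusted p = 0.000197), a ratio of 1.74, and the call held in 13 of 13 alternatives. In LIF it was at 9.88, 8.58 and 10.5 FPKM in KO libraries and 8.57, 8.80 and 9.19 FPKM in control libraries. These overlapped, with a log2 difference of 0.11 (95% interval -0.11 to 0.33, limma adjusted p = 0.505). ES cells had 8.38, 7.78 and 7.91 FPKM, close to the LIF levels.

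Within a library, the ratio of Mycn to Myc does not depend on scaling between libraries. Mycn exceeded Myc 6.64, 7.63 and 6.55 times in KO LIF libraries, and 5.35, 5.27 and 5.53 times in control LIF libraries. In Wnt/activin the ratio was 0.371, 0.377 and 0.383 in KO libraries and 0.424, 0.396 and 0.449 in control libraries, so Myc exceeded Mycn in each of these 6. The ratio was higher in all KO than in all control libraries in LIF, by 0.36 on the log2 scale, and lower in Wnt/activin, with a difference of -0.16. An exact two-sided permutation test gave p = 0.1 for each, the smallest that 3 against 3 libraries allow, so neither could pass 0.05. With the trend of span and level taken out, the difference in Wnt/activin was -0.33. ES cells had the highest ratios, from 15.9 to 18.6.

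The summed level of Myc, Mycn and Mycl was 139 ± 4.69 FPKM in KO and 155 ± 4.44 FPKM in control LIF libraries (SD, n = 3 each). It was 132 ± 4.52 FPKM in KO and 104 ± 1.00 FPKM in control libraries in Wnt/activin, and 58.4 ± 0.965 FPKM in ES cells. Mycn made up 81.3% of the sum in KO and 79.5% in control LIF libraries, and 19.7% in KO and 23.6% in control libraries in Wnt/activin. Mycl made up 28.1% in KO and 20.5% in control libraries in Wnt/activin, with library ranges of 27.4% to 29.5% and 19.3% to 21.5%. Myc held the largest share in both of these groups, at 52.2% in KO and 55.9% in control libraries.

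**Figure D2:**
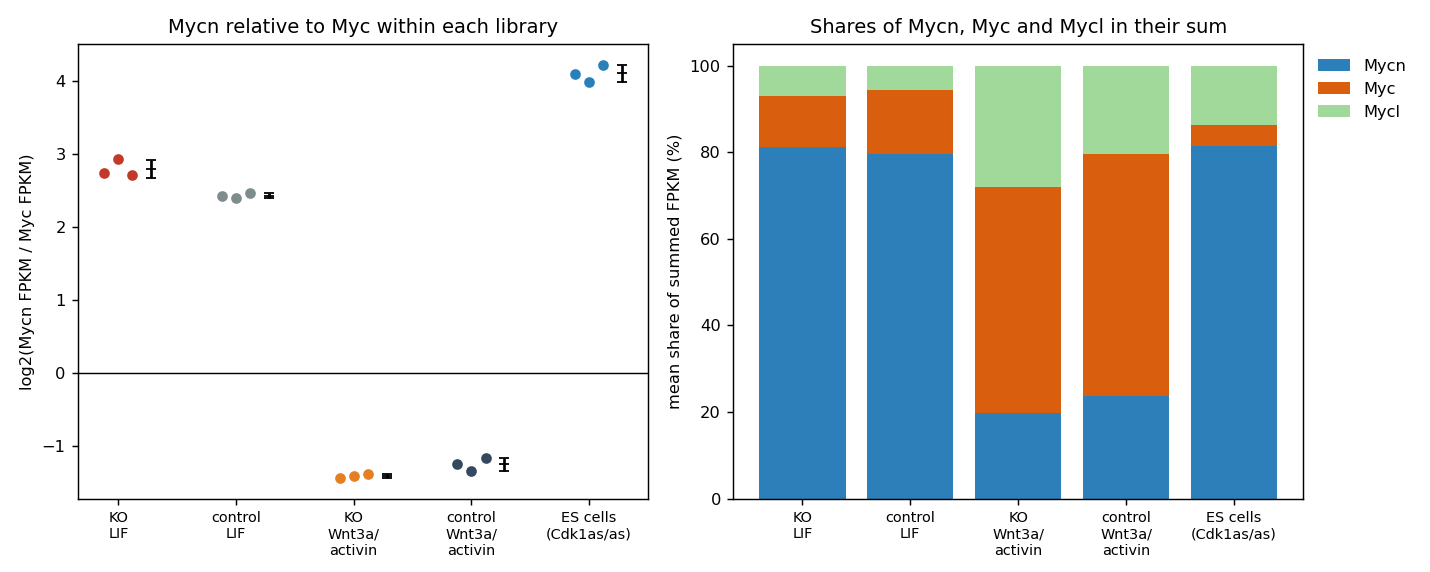
Left, log2 ratio of Mycn to Myc FPKM within each library (points; bars, mean and SD of 3) in the KO and control groups in LIF, those in Wnt/activin, and ES cells. Right, mean share of Mycn, Myc and Mycl in their summed FPKM (%); Mycn holds 81.3% in KO and 79.5% in control LIF cells, and Myc 52.2% in KO and 55.9% in control cells in Wnt/activin.

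Max, the obligate partner of the Myc proteins, was the most abundant member in every group by mean FPKM. In LIF it measured 174, 183 and 165 FPKM in KO libraries and 177, 166 and 172 FPKM in control libraries, which overlapped. The log2 difference was 0.02 (95% interval -0.11 to 0.16, limma adjusted p = 0.839). In Wnt/activin it measured 159, 161 and 91.0 FPKM in KO libraries and 71.0, 145 and 137 FPKM in control libraries. KO replicate 3 and control replicate 1 stood well below the others of their groups. The log2 difference was 0.24 (SE 0.34, limma adjusted p = 0.597) with a 95% interval of -0.60 to 1.08, so the spread between libraries allowed a difference in either direction. Without control replicate 1 the difference was -0.091. ES cells had 135, 210 and 115 FPKM, a spread of 32.7% of the mean. The predicted gene Gm47218, which shares the Max locus, stayed at or below 1.16 FPKM in the 15 libraries.

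The sum of Myc, Mycn and Mycl relative to Max was 0.818, 0.727 and 0.848 in KO LIF libraries, against 0.863, 0.923 and 0.933 in control LIF libraries. The log2 difference was -0.19 without overlap (exact permutation test, p = 0.1). In Wnt/activin it was 0.800, 0.844 and 1.45 in KO libraries and 1.47, 0.722 and 0.750 in control libraries, where the groups overlapped (difference 0.10, exact permutation test, p = 0.6), the high value of each group being its library of low Max.

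Mga showed the largest KO difference of the 6. In Wnt/activin it measured 14.2, 15.7 and 13.7 FPKM in KO libraries, against 3.86, 4.61 and 2.90 FPKM in control libraries. The lowest KO library was far above the highest control library. Mga rose by 1.71 on the log2 scale (SE 0.15, 95% interval 1.35 to 2.07, limma adjusted p = 0.000314), a ratio of means of 3.83, and 1.15% of the 12770 genes tested had a higher log2 fold change. The call held in 13 of 13 alternatives, with the log2 fold change between 1.48 and 1.93. In LIF, Mga measured 41.4, 43.6 and 33.3 FPKM in KO libraries and 40.2, 41.0 and 46.6 FPKM in control libraries. KO replicate 3, the library with the high Mir6236 share, was the lowest, and the groups overlapped (log2 difference -0.12, 95% interval -0.40 to 0.17, limma adjusted p = 0.581). ES cells had 49.1, 48.9 and 42.6 FPKM. In these separately scaled tables, KO cells in Wnt/activin thus lay between their controls and the LIF and ES cell groups, whose libraries ranged from 33.3 to 49.1 FPKM.

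Mxi1, the Mxd family antagonist, was the least abundant member in Wnt/activin. It measured 3.22, 3.94 and 3.54 FPKM in KO libraries, against 2.40, 2.30 and 2.59 FPKM in control libraries, with no overlap. It rose by 0.41 on the log2 scale (SE 0.11, limma adjusted p = 0.0234), a ratio of 1.47. The call held in 5 of 13 alternatives (adjusted p from 0.00922 to 0.309): the log2 fold change was 0.15 with the trend taken out, and the call ended without KO replicate 2, KO replicate 3, control replicate 1 or control replicate 2 (adjusted p 0.0589 to 0.0779). In LIF it was at 11.2, 11.1 and 10.7 FPKM in KO libraries and 10.4, 10.9 and 9.83 FPKM in control libraries, which overlapped (log2 difference 0.08, limma adjusted p = 0.540). ES cells had 11.1, 11.5 and 10.7 FPKM.

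The deposited tables list the predicted gene Gm10197 at the Mxi1 locus, and RefSeq gives that name as a synonym of Mxi1. It measured 17.8, 40.3 and 36.2 FPKM in KO libraries and 6.03, 0 and 10.8 FPKM in control libraries in Wnt/activin. In LIF it measured 84.2, 84.9 and 73.3 FPKM in KO libraries and 88.4, 130 and 48.5 FPKM in control libraries. Its row was higher than that of Mxi1 in all but 1 of these 12 libraries, and how reads were divided between the overlapping rows is not given, so the level of Mxi1 is uncertain.

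Counted over the members, 1 of 6 was called in LIF, lower in KO cells, where 4.41% of all genes were called, 0.958% higher and 3.45% lower. That split in LIF depended on scaling, with 126 higher and 454 lower against 127 and 142 when quantiles were equalised. In Wnt/activin, 4 of 6 were called, all higher in KO cells. The background there was 49.1% of genes called, with 19.6% higher and 29.5% lower, and here too the split turned on scaling, since 2500 higher and 3773 lower genes became 2746 and 2889 once quantiles were equalised. KO and control libraries did not overlap for 2 members in LIF, Myc and Mycn, where 31.2% of genes did not overlap, and for 4 in Wnt/activin, where 60.1% did not. By q-values under 0.05 in the authors' deposited tables, 6.73% of genes passed in LIF and 45.1% in Wnt/activin; the members that passed were Myc in LIF, and Myc, Mycl, Mga and Mxi1 in Wnt/activin.

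**Figure D3:**
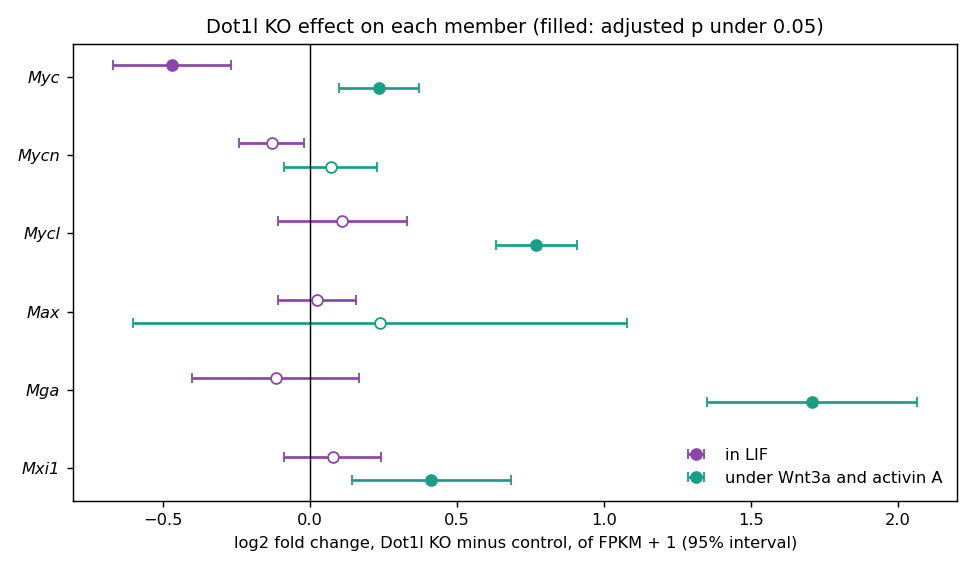
Log2 fold change of FPKM + 1, Dot1l KO minus control (x axis), for each member (y axis) in LIF (purple) and in Wnt/activin (green), with 95% intervals from limma over 3 libraries a group. Filled points passed an adjusted p of 0.05; Mga at 1.71 and Mycl at 0.77 in Wnt/activin stand furthest right, and Myc at -0.47 in LIF furthest left.

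Whether the KO effect differed between conditions was tested by an interaction term over the 12 libraries, which compares differences within each table. The effect in Wnt/activin was higher than in LIF by 1.83 for Mga (SE 0.19, limma adjusted p = 7.17e-05), 0.70 for Myc (SE 0.10, 0.000347), 0.66 for Mycl (SE 0.10, 0.000681) and 0.34 for Mxi1 (SE 0.12, 0.0419). Mycn, at 0.20 (SE 0.07, 0.0528), and Max, at 0.21 (SE 0.38, 0.690), did not pass. These were 4 of 6 members, against 38.3% of genes called in that test, of which those higher in Wnt/activin were 17.6% of all genes tested; for Mga, 0.832% of genes had a higher difference. The calls of Mga, Myc and Mycl held in 19 of 19 alternatives, though Myc reached 1.07 with the trend taken out, while that of Mxi1 held in 6 of 19 and its difference was 0.02 with the trend taken out.

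Gene span moved with the fold changes in Wnt/activin. Among genes whose span was within 0.5 log2 units of each member's, the median log2 fold change was -0.39 for 907 genes like Myc, -0.36 for 1034 like Mycn and -0.34 for 1163 like Mycl. It was -0.11 for 2672 genes like Max, 0.11 for 2241 like Mga and 0.10 for 2336 like Mxi1. All 6 members lay above the median of the genes of their own span in Wnt/activin, though Mycn and Max were not called. In LIF, Mycl, Max and Mxi1 lay above that median. Myc (-0.47 beside -0.10), Mycn (-0.13 beside -0.10) and Mga (-0.12 beside -0.05) lay below it.

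Cell type markers moved with the same comparisons. Of all genes tested, 0.958% were called higher and 3.45% lower in LIF, and 19.6% higher and 29.5% lower in Wnt/activin. In Wnt/activin, 5 of 5 primitive streak markers were called higher in KO cells (summed level 944 to 973 FPKM, against 597 to 654 FPKM in controls). Of these, Mesp1 averaged 0.975 FPKM in control libraries and passed the filter on low values only through the KO libraries, at 12.3 FPKM. All 5 of the 5 endoderm markers tested were higher (179 to 185 against 88.4 to 90.5 FPKM, Afp under 1). Of the ES cell markers, 4 of 5 were lower (1175 to 1271 against 2070 to 2209 FPKM), or 2 of 5 after quantile normalization. In LIF, 4 of 5 ES cell markers were lower in KO cells (2210 to 2293 against 2658 to 2797 FPKM), or 1 of 5 under each of 3 other scalings and 0 of 5 with any 1 library left out. Endoderm markers in LIF summed to 32.9 to 34.3 FPKM in KO and 22.4 to 23.1 FPKM in control libraries, with 0 of 5 tested called. Fibroblast markers, which the feeder layer can bring, summed to 44.2 to 47.2 FPKM in KO and 21.8 to 35.2 FPKM in control LIF libraries, with 2 of 5 tested called higher (Acta2 and Timp3), neither of them with any 1 library left out, and Timp3 not after quantile normalization. They summed to 48.6 to 51.8 FPKM in KO and 39.0 to 42.6 FPKM in control libraries in Wnt/activin, with 4 of 6 higher. Dcn, Lum and Postn averaged under 1 FPKM in these 4 groups. In the separately scaled ES cells, fibroblast markers summed to 52.2 to 66.3 FPKM and endoderm markers to 78.6 to 80.1 FPKM. The part of the cell types behind these markers in the results on Myc, Mycl, Mga and Mxi1 was not tested. In bulk RNA, fewer cells of a type and less RNA per cell cannot be told apart.

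The other genes of the network were read from lists of known genes. Counts over each list stand beside 4.41% of all genes called in LIF and 49.1% in Wnt/activin. No such share is given for the fits with the trend taken out. List counts under that setting show only how far the lists moved with it. Of the 7 other genes of the Max and Mlx network, 1 was called in LIF: Mxd3, an antagonist of the Mxd family, averaged 6.43 ± 0.0803 FPKM in KO and 8.71 ± 0.172 FPKM in control libraries and fell by 0.39 on the log2 scale (limma adjusted p = 0.0359). That call ended with each of 3 other scalings and without any 1 library. The list's median in LIF was -0.30, beside -0.07 over all genes. In Wnt/activin, 1 of 7 was called: Mlxip, the glucose-responsive partner of Mlx also called MondoA, averaged 9.87 ± 1.19 FPKM in KO and 5.17 ± 0.0489 FPKM in control libraries and rose by 0.81 (limma adjusted p = 0.00118). The list's median was 0.32, beside -0.08 over all genes. That median is the value of Mxd1, which was not called (limma adjusted p = 0.214). Mxd1 averaged 0.927 FPKM in control libraries and passed the filter on low values only through the KO libraries, at 1.42 FPKM. In LIF, Mlxip was at 6.97 ± 0.550 FPKM in KO and 9.56 ± 1.26 FPKM in control libraries and was not called (limma adjusted p = 0.0997); the KO effect differed between conditions by 1.21 (adjusted p = 0.000181).

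Of 12 subunits that join Mga in PRC1.6, none was called in LIF by limma. In Wnt/activin, 3 were higher and 3 lower, a share near the 49.1% of all genes called there. Rnf2, a ubiquitin ligase of PRC1, averaged 69.1 ± 4.53 FPKM in KO and 41.9 ± 6.72 FPKM in control libraries and rose by 0.72 (limma adjusted p = 0.00383), and its paralog Ring1, at 8.21 ± 0.665 FPKM in KO and 14.9 ± 3.44 FPKM in control libraries, fell by 0.76 (0.0129). Tfdp1, the dimer partner of E2f6, rose by 0.71 (limma adjusted p = 0.00179), and Rybp, which aids PRC1 activity, by 0.69 (0.0401), a call that ended with the trend taken out and held in 1 of 6 fits without 1 library. The split was 4 higher and 1 lower by quantile normalization, and 3 against 1 with the trend taken out. Pcgf6 and L3mbtl2, which define the complex with Mga, had log2 differences of 0.20 and -0.14 and did not pass (limma adjusted p = 0.0699 and 0.0696).

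Of 13 germline genes that PRC1.6 silences, 12 could be tested in LIF, where Slc25a31 passed the filter with a control mean under 1 FPKM. There 4 were called higher in KO cells and none lower, with a median of 0.61, beside 0.958% of all genes called higher and 3.45% lower. Mael, a piRNA pathway gene, was at 32.6, 37.2 and 33.3 FPKM in KO libraries and 17.1, 18.9 and 15.3 FPKM in control libraries, and rose by 0.97 (limma adjusted p = 0.0176). Tuba3a, a testis tubulin, rose by 0.77 (limma adjusted p = 0.0140), though its near-identical copy Tuba3b makes its value uncertain. Dazl, a germ cell RNA-binding protein, rose by 0.75 (limma adjusted p = 0.0245) and Ddx4, the Vasa helicase, by 0.35 (0.0467). With the removal of any 1 library these 4 calls became 0 or, without control replicate 1, 1 (Tuba3a). In Wnt/activin, where Mga itself rose, 5 of the 13 could be tested and 1 was called higher, Tdrkh by 0.64 (limma adjusted p = 0.0461), which ended with quantile normalization and with the trend taken out. The list was chosen with results of these libraries known and is no independent evidence of its direction.

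Of 12 coactivators, elongation factors and other partners of Myc, none was called in LIF by limma. In Wnt/activin, 3 were higher and 6 lower with a median of -0.22, beside 19.6% and 29.5% of all genes. But 3 were higher and none lower after quantile normalization, and 5 higher and 2 lower with the trend taken out, both with a median of 0.06. Ep400, a remodelling ATPase of the TIP60 complex, rose by 0.92 (limma adjusted p = 0.00206), and Hcfc1, a cofactor that binds Myc, by 0.27 (0.00768). Both calls held under these scalings, with Hcfc1 at 0.55 under each. The helicases Ruvbl2 and Ruvbl1 fell by 0.71 and by 0.43 (limma adjusted p = 0.00115 and 0.00354). Each call held in 12 of 13 alternatives, with differences of -0.28 and -0.20 with the trend taken out. After quantile normalization both had differences of -0.16 and were not called.

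Of 9 genes that control the stability of Myc proteins, none was called in LIF by limma. In Wnt/activin, 3 were higher and 2 lower, beside 19.6% and 29.5% of all genes. With the trend taken out, 5 were higher and 1 lower. No share of all genes is given for that fit, so this shows only that the split moved with scaling. Huwe1, a ubiquitin ligase that acts on Myc proteins, was at 89.4, 91.7 and 120 FPKM in KO libraries and 39.1, 50.6 and 52.0 FPKM in control libraries, and rose by 1.07 (limma adjusted p = 0.00216). Gsk3b, the kinase that marks Myc for degradation, rose by 0.94 (limma adjusted p = 0.00199), and Skp2, an F-box protein of Myc turnover, by 0.37 (0.0140), a call that ended with the trend taken out.

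Of 28 genes known as targets of Myc, mostly of ribosome production and metabolism, 1 was called in LIF, the cell cycle kinase Cdk4, which fell by 0.33 (limma adjusted p = 0.0268), a call that ended with quantile normalization, with the trend taken out and without any 1 library. In Wnt/activin, 5 were called higher and 17 lower with a median of -0.24. The direction turned to 11 higher against 2 lower (median 0.10) by quantile normalization, and to 12 against 3 (median 0.11) with the trend taken out. By median-of-ratios rescaling, most of the genes called lower were still called lower, such as Ldha at -0.48 and Srm at -0.45. Npm1 and Rrp12 were then no longer called. Nucleolin (Ncl) fell by 0.92 and the ribosome biogenesis factor Ppan by 0.80 (limma adjusted p = 0.000144 and 8.04e-05), and both were still called lower under the 3 other scalings. Cdk4 fell by 0.66 (limma adjusted p = 8.82e-05), but its difference was 0.02 after quantile normalization. The transferrin receptor Tfrc rose by 0.74 (limma adjusted p = 0.0180), called in 4 of 6 fits without 1 library.

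**Figure D4:**
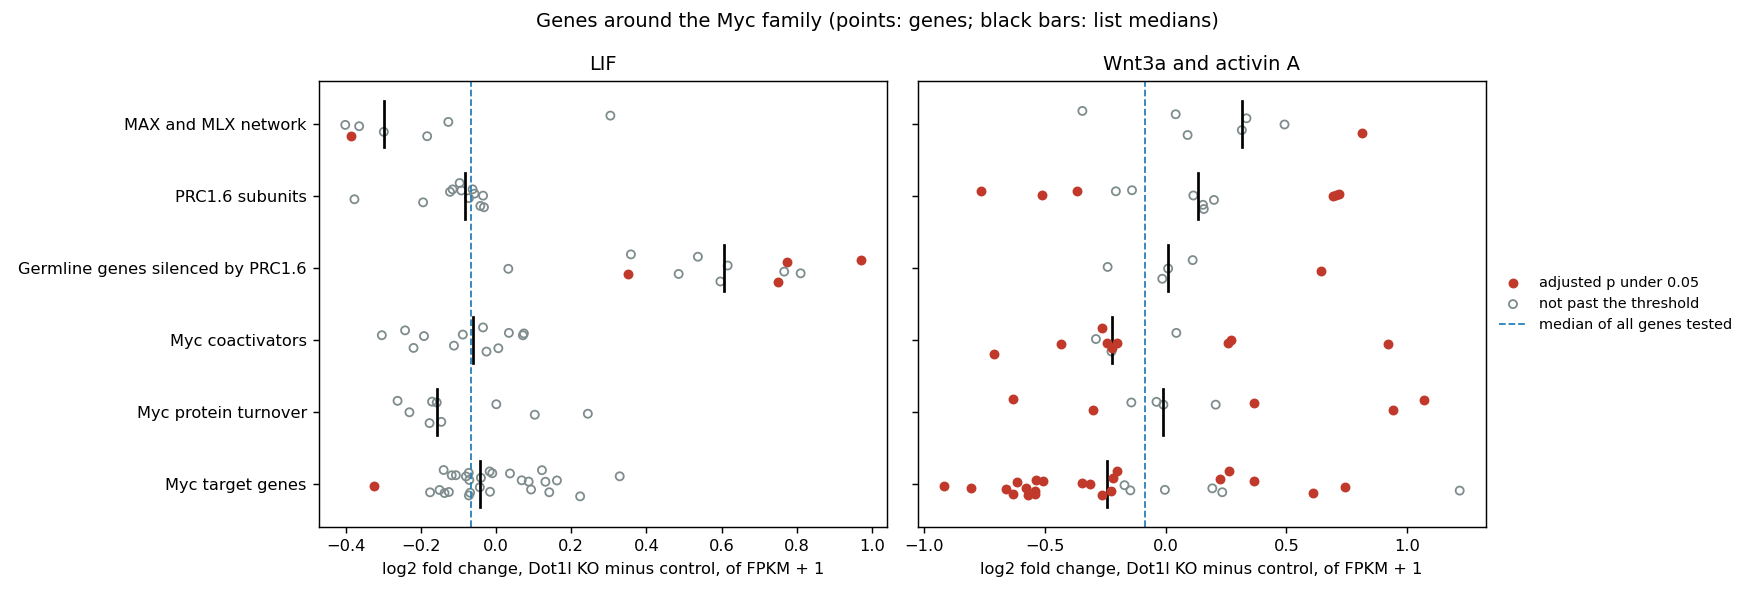
Log2 fold change of FPKM + 1, Dot1l KO minus control (x axis, scale differing between panels), for the genes of 6 lists around the Myc family (y axis), in LIF (left) and in Wnt/activin (right). Points are genes, filled red where the adjusted p was under 0.05, black bars are list medians and the dashed line is the median of all genes tested; the germline genes in LIF have a median of 0.61, and the Myc target genes in Wnt/activin one of -0.24, which turned to 0.10 after quantile normalization.

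Likeness of pattern was described by Pearson's r of log2(FPKM + 1), centred within each KO table, over 12 libraries and 10840 genes; the libraries share genotype groups and tables, so no p is given. Mga was most like Sh3pxd2a (r = 0.989), Ankrd11 (0.989) and Asxl2 (0.988). Mycl was most like Arl4d (0.986), Pik3c2b (0.982) and Bbx (0.980), and Mxi1 most like Tab2 (0.970), Dyrk2 (0.967) and Sptb (0.961). Myc was most like Ssbp3 (0.962), Fignl2 (0.952) and Fzd5 (0.941), which were, like Myc, called lower in LIF and higher in Wnt/activin. Their shared directions follow from the choice by r and are no separate result. For Mycn, genes of high likeness included Nr2c1 (0.926) and Pan2 (0.915). Max was most like Poc5 (0.918), Zfp941 (0.878) and Crygn (0.828). Among the members themselves, r was 0.903 for Mycl and Mga, 0.882 for Mycl and Mxi1, 0.855 for Mga and Mxi1 and 0.816 for Myc and Mycn, while that of Max with the other 5 lay between -0.14 and 0.33. Values were not centred within genotype, so each r includes the KO differences given above and is no separate result.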

How the data were processed

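Gene rows and columns were taken from the 3 deposited expression tables, whose values are FPKM made by the authors. STAR 2.5.4a, Cufflinks 2.2.1 and Cuffdiff are named for the series, per the submitters' processing notes, with no role or order. The p-values and q-values of the knockout tables are the authors' own, per the file headers. FPKM divides by library and transcript length, so reads per gene cannot be had and counting error is unknown. Of the symbols, 27 that had become dates were restored from gene IDs.

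Each knockout table was tested alone with limma 3.58.1 (R 4.3.3) with a mean-variance trend on log2(FPKM + 1), over genes averaging 1 FPKM or more across its 6 libraries. P-values were two-sided and adjusted by Benjamini-Hochberg, with a threshold of 0.05. A fold change on this scale understates that of low genes. Conditions were compared by an interaction term for genes tested in both tables, and ratios within libraries used an exact permutation test. Alternatives were a pseudocount of 0.1, no filter, median-of-ratios and quantile scaling, removal of a smooth trend with gene span and level (mgcv 1.9.3), limma without a trend, a replicate block, and leaving out each library. The fits were tested on simulated data. The text names the 6 members, Dot1l, up to 4 called genes per list and comparison by size of change, and 3 genes per member by likeness, less some that are not reported here; the genes at the Max and Mxi1 loci, Mir6236, Pcgf6 and L3mbtl2, and uncalled list genes were named after their values were seen. The members and lists were chosen with earlier results of these data known. Promoter windows are RefSeq's. The 3 peak lists were not used here, because no source used here gives their genome build.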

Additional observations from a re-analysis of the deposited data

Results flagged for a closer look

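The effect of the Dot1l KO differed between the conditions for 4 members by the interaction term of limma over 12 libraries, a test in which 38.3% of all genes were called, 17.6% with a higher effect in Wnt/activin. Mga stood out with a KO effect 1.83 higher on the log2 scale in Wnt/activin than in LIF, where its KO and control libraries overlapped. For Myc the difference was 0.70, with every KO library above every control library in Wnt/activin and below every one in LIF. For Mycl it was 0.66, and for Mxi1 0.34, the last a call that held in 6 of 19 alternatives and concerns a gene whose locus is shared with Gm10197. Groups of 3 libraries are too small for the test of a single outlying library.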

How the results depend on the processing

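The count of members called in LIF, 1 in the report, became 0 without the filter on low values, by median-of-ratios rescaling, with quantile normalization, with the trend of span and level taken out, in limma without a trend and with the replicate block, and 0 to 0 when each library was left out in turn; it was unchanged with a pseudocount of 0.1. The KO minus control difference in the log2 ratio of Mycn to Myc in Wnt/activin was -0.33 with that trend taken out, beside -0.16 in the report. The counts of members called in Wnt/activin and between conditions moved by no more than 1.5 times, and the other differences in ratio by less than the spread between libraries. Some counts over the lists around the family moved by more than 1.5 times. Single members changed sign 4 times, all for Max, never called: -0.015 in LIF without KO replicate 2, -0.0022 in LIF without control replicate 2, -0.091 in Wnt/activin without control replicate 1, and -0.11 for the difference between conditions without that library. With 1 library left out, Max ranged from -0.015 to 0.061 in LIF, from -0.091 to 0.51 in Wnt/activin and from -0.11 to 0.48 for the difference. The replicate numbers gave no sign of a pairing, though weak correlations cannot exclude one. Deviations of same-numbered KO and control libraries correlated at -0.0119 to 0.0621, and not every library correlated best with its own number. With the block, 0 of 13153 genes were called in LIF, and in Wnt/activin 3 members were called, Mxi1 not among them. FPKM values carry no read counts, so precision for Mxi1 and for Mga in control cells, at the lowest levels, rests on 3 libraries alone.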
